A study of Mus musculus with 3 samples.

Results

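The genes described here are 6 receptors that give T cells their second, costimulatory signal: Tnfrsf4 (OX40, ENSMUSG00000029075), Tnfrsf9 (CD137, ENSMUSG00000028965), Tnfrsf18 (GITR, ENSMUSG00000041954), Icos (ENSMUSG00000026009), Cd28 (ENSMUSG00000026012) and Cd27 (ENSMUSG00000030336). They were chosen by symbol, as receptors of 1 kind, with earlier results of these data known, and all 6 were found among the 56980 genes of the deposited tables. Their RNA was followed in spleen cells of wild-type mice, ground to a suspension and profiled by droplet-based single-cell sequencing (10x Genomics) in 3 libraries, 1 per group. The Control mice were not irradiated. The IR mice received 8.5 Gy and what the label calls a "colvent control", read here as a vehicle with some doubt. The IR+HSO mice received 8.5 Gy and HSO, which the series title gives as hemp seed oil. The labels state neither the time after irradiation, nor the dose and route of HSO, nor how many mice entered a library. With 1 library per group no difference has a replicate check and no test was possible, so every comparison is between libraries, and each 95% interval covers counting error only.

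A T cell that meets antigen needs a signal from costimulatory receptors besides that of its antigen receptor. Cd28 and Icos belong to the immunoglobulin superfamily and act mainly through phosphoinositide 3-kinase. CD28 is present on resting T cells and binds CD80 and CD86, whereas ICOS appears after activation, binds ICOS ligand and is abundant on follicular helper T cells. The other members belong to the tumour necrosis factor receptor family, recruit TRAF adaptors and lead to NF-kB activation and cell survival. OX40, CD137 and GITR are induced by activation, are high on regulatory T cells, and bind the ligands encoded by Tnfsf4, Tnfsf9 and Tnfsf18. CD27 is carried by naive T cells, binds CD70 and is lost from terminally differentiated effector cells. GITR, CD137 and CD27 are also found on NK cells.

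T cells were taken as cells with at least 2 unique molecular identifier (UMI) counts of Cd3d, Cd3e and Cd3g together, which gave 3731 cells in Control, 8212 in IR and 6982 in IR+HSO. All 8 T cell markers fixed for the check were present, at a summed 5693, 5764 and 4563 CPM (a gene's UMIs in the gated cells, scaled to a total of 1000000 UMIs). These cells were divided by whether Foxp3, Cd4 and Cd8a or Cd8b1 had a UMI. Foxp3+ cells, which hold the regulatory T cells, made up 6.59% of T cells in Control (95% exact interval 5.82 to 7.44), 10.6% in IR (9.95 to 11.3) and 22.2% in IR+HSO (21.2 to 23.2). Among the Foxp3-negative cells, those with Cd4 alone (CD4 cells) made up 32.2%, 30.4% and 28.2% of T cells, and those with Cd8a or Cd8b1 alone (CD8 cells) 34.3%, 7.95% and 8.78%. Cells in which neither coreceptor had a UMI made up 22.6%, 48.4% and 38.9%. They can be CD4 or CD8 cells whose coreceptor was not captured. The regulatory T cell markers summed to 2420, 3109 and 3570 CPM in the Foxp3+ cells, against 449, 952 and 1618 CPM in all T cells.

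The libraries differed beyond the groups' labels in ways that stand beside every value below. They held 9520, 13509 and 12710 cell barcodes, and between 45636807 and 50836313 UMIs. Barcodes with 10% or more mitochondrial UMIs were left out, 3.75% in Control, 4.76% in IR and 16.5% in IR+HSO. The T cells had median depths of 5479, 3587 and 3569 UMIs. Their 5 pancreatic acinar markers summed to 2.27, 1466 and 539 CPM, with Ctrb1, Try5 and Cpa1 at 0 in Control. Their 6 B cell markers summed to 524, 57.3 and 41.9 CPM, their 4 plasma cell markers to 520.0, 1816 and 1460 CPM, and their 6 NK cell markers to 133, 502 and 374 CPM. The part of these differences in the results was not tested. Between 34 and 54 barcodes were shared by any pair of libraries. CPM measures a share of the gated RNA, so fewer cells with a transcript and less transcript per cell cannot be told apart from it.

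In T cells, the RNA of 4 of the 6 receptors exceeded the Control level at least 1.5-fold in IR: Tnfrsf4, Tnfrsf18, Tnfrsf9 and Icos. Icos fell short of it, at 1.46, when the T cell groups were weighted as in Control. Cd28 and Cd27 lay at lower levels in IR without passing 1.5-fold, so 0 of the 6 were called lower. Among the 10367 genes with at least 5 CPM in either library, 11.5% were at least 1.5-fold higher and 4.23% at least 1.5-fold lower in IR. The members' median log2 ratio was 1.24, beside a median of 0.11 over those genes. Between IR+HSO and IR, Tnfrsf4 and Tnfrsf9 passed 1.5-fold upward and 0 members downward, against 7.67% and 5.4% of 10508 genes. There the members' median log2 ratio was 0.36, beside 0.04 over all genes tested. The ratio of IR+HSO to Control shares its libraries with both of these comparisons. It exceeded 1.5-fold upward for Tnfrsf4, Tnfrsf9, Tnfrsf18 and Icos and downward for none of the 6, where 18.7% of 10566 genes were higher and 6.79% lower.

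**Figure D1:**
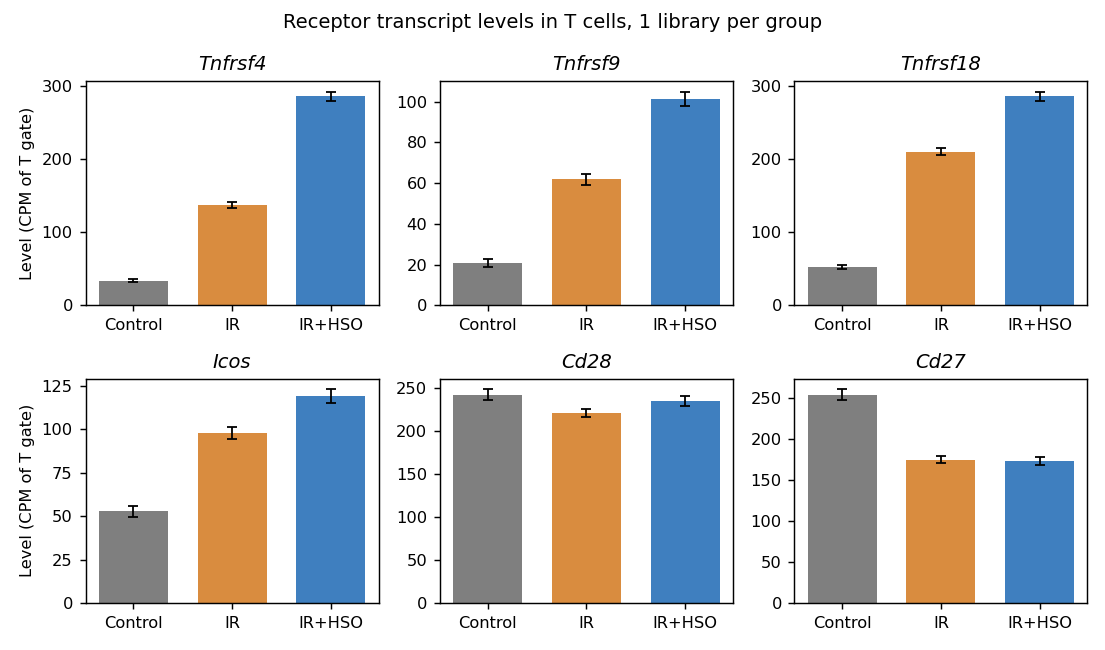
Level of each receptor in T cells by library, in CPM with 95% counting intervals, 1 panel per gene and 1 library per group. Tnfrsf4, Tnfrsf9, Tnfrsf18 and Icos step up from Control to IR to IR+HSO (Tnfrsf4 33.8, 137 and 287 CPM), Cd28 stays between 221 and 242 CPM, and Cd27 is highest in Control at 254 CPM.

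Tnfrsf4 showed the widest spread between libraries of the 6. Its T cell level was 33.8 CPM in Control (775 UMIs), 137 CPM in IR (4893 UMIs) and 287 CPM in IR+HSO (8610 UMIs). No counting intervals overlapped, and the order was Control, IR, IR+HSO. The ratio of the IR level to that of Control was 4.05 (95% interval 3.75 to 4.37), and that of IR+HSO to IR 2.09 (2.02 to 2.17).

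Tnfrsf9, whose product promotes survival and cytokine secretion mainly in activated CD8 T cells and marks activated regulatory T cells, stood at 20.6, 61.8 and 101 CPM (471, 2208 and 3042 UMIs). The ratio was 3.01 (2.72 to 3.33) for IR over Control and 1.64 (1.55 to 1.73) for IR+HSO over IR. As for Tnfrsf4, the 3 counting intervals were apart.

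Tnfrsf18, which lies next to Tnfrsf4, stood at 52.2, 210.5 and 286 CPM (1196, 7519 and 8606 UMIs). IR exceeded Control 4.03-fold (3.79 to 4.29), much as for Tnfrsf4. IR+HSO exceeded IR 1.36-fold (1.32 to 1.40), short of 1.5-fold and with an interval below that of Tnfrsf4.

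Tnfrsf4 and Tnfrsf18 are neighbours on mouse chromosome 4 with 0 protein-coding genes between them, and Cd28, Ctla4 and Icos lie in a row on chromosome 1, again with 0 between neighbours (RefSeq, GRCm38.p6). Promoter sequences are shown for the 3 receptors that moved most, because these genes were higher together in IR. They come from the RefSeq promoter table of that build, which held windows for 4 of the 6 members. Tnfrsf9 had 2 windows there, of which only the first was used and searched. Each sequence is printed 5' to 3' in the gene's direction, up to the annotated gene start. Capitals mark the letters TGGAAA, the core of sites bound by NFAT, or their complement on the other strand. Tnfrsf4 is given from chr4:156013445-156013594 on the plus strand, Tnfrsf9 from chr4:150919905-150920154 on the plus strand, and Tnfrsf18 from chr4:156026072-156026321 on the plus strand.
Tnfrsf4: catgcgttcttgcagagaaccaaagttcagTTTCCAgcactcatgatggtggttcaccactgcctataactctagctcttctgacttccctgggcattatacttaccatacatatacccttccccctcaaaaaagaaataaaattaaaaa
Tnfrsf9: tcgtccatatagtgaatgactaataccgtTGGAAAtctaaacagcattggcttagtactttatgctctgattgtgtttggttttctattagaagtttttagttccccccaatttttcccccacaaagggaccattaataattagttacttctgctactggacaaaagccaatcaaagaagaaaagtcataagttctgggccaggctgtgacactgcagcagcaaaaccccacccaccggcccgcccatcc
Tnfrsf18: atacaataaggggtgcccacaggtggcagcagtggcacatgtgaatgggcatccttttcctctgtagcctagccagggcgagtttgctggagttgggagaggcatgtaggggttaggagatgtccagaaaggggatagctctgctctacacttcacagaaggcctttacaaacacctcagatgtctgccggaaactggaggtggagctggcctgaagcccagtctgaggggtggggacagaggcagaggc
The NFAT letters lay on the minus strand in the Tnfrsf4 window and on the plus strand in that of Tnfrsf9. They were not found in the windows of Tnfrsf18 and Cd27. In all 32851 windows of 300 bases in the table, 21.4% held TGGAAA on either strand, so a match in 2 of 4 windows is a description of these letters only. Motifs for NF-kB, AP-1 (TGANTCA), forkhead factors (TGTTTAC) and the p53 half-site were searched on both strands too. They had 0 matches in the 4 windows, and the table's shares were 4.51%, 7.81%, 3.65% and 8.36%. No printed sequence held more than 1 match, so no overlap of motifs was possible.

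Icos, the inducible member of the immunoglobulin group, had T cell levels of 52.7, 97.8 and 119 CPM (1206, 3492 and 3576 UMIs). The IR level was 1.86-fold that of Control (1.74 to 1.98), and the IR+HSO level 1.22-fold that of IR (1.16 to 1.28). Cd28, its constitutive relative, stood at 242, 221 and 235 CPM. Its IR over Control ratio was 0.912 (0.881 to 0.944), a difference larger than counting error but far from 1.5-fold. Cd27 stood at 254, 174 and 173 CPM. It was the member with the lowest IR over Control ratio, 0.687 (0.663 to 0.712), just short of 1.5-fold lower. IR+HSO and IR differed by less than counting error, at a ratio of 0.990.

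In Foxp3+ cells the 3 inducible receptors of the tumour necrosis factor family were again higher in IR, and Icos was not. Tnfrsf4 stood at 285, 559 and 695 CPM, Tnfrsf9 at 107, 222 and 252 CPM and Tnfrsf18 at 181, 418 and 512 CPM. IR over Control ratios were 1.96 (1.78 to 2.17), 2.08 (1.78 to 2.44) and 2.30 (2.05 to 2.60). For each of the 3 genes Control was the lowest library and IR+HSO the highest. The IR+HSO over IR ratios were 1.24 (1.19 to 1.31), 1.14 (1.05 to 1.23) and 1.22 (1.16 to 1.29). So 3 of 6 members passed 1.5-fold upward between IR and Control, where 11.5% of 10863 genes did so upward and 11.5% downward. Between IR+HSO and IR 0 of 6 passed in either direction, where 9.67% of 10675 genes were higher and 6.26% lower.

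Icos in Foxp3+ cells was highest in Control, at 180.3 CPM against 149 in IR and 158 in IR+HSO. Its IR over Control ratio was 0.827 (0.722 to 0.948). Cd28 stood at 236, 223 and 259 CPM and Cd27 at 302, 218 and 233 CPM there. The Cd27 ratio for IR over Control, 0.722 (0.649 to 0.805), was close to that in all T cells. Plasma cell markers summed to 1939, 3053 and 992 CPM in these cells, and their part in the values was not tested.

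The Foxp3-negative CD4 cells, which hold helper T cells, had larger ratios than Foxp3+ cells for the 3 inducible genes of the tumour necrosis factor family as gated, at lower levels. The regulatory T cell markers summed to 365.5, 777 and 1258 CPM in these CD4 cells, with Foxp3 at 0 by the gate. The part of regulatory T cells without a Foxp3 UMI in the ratios was not tested. Tnfrsf4 stood at 20.5, 110.4 and 234 CPM in them, a ratio of 5.39 (4.54 to 6.45) for IR over Control and 2.12 (1.97 to 2.27) for IR+HSO over IR. Tnfrsf9 stood at 8.62, 38.2 and 50.3 CPM, with ratios of 4.44 and 1.31. Tnfrsf18 stood at 43.2, 190.1 and 242 CPM, with ratios of 4.4 and 1.27. Icos had ratios of about the same size in both comparisons. It stood at 60.0, 92.3 and 137.5 CPM, with ratios of 1.54 (1.37 to 1.72) and 1.49 (1.37 to 1.62). In CD4 cells 4 of 6 members passed 1.5-fold upward and 0 downward for IR over Control, where 12.9% of 10306 genes were higher and 4.99% lower. Only Tnfrsf4 did so for IR+HSO over IR, where 10.5% of 10472 genes were higher and 7.38% lower. Both counts changed when cells were thinned to 1000 UMIs and gated again, so that cells which lost their Foxp3 UMI could enter the CD4 group. The IR over Control ratio in CD4 cells was then 2.72 for Tnfrsf4 (1.65 to 4.74), 2.22 for Tnfrsf9 (0.921 to 6.50) and 1.18 for Icos, and in Foxp3+ cells 5.54 for Tnfrsf4 (2.32 to 17.3) and 3.80 for Tnfrsf9 (1.24 to 18.9), so the order of these groups turned for both genes, with overlapping intervals. Cd27 then passed 1.5-fold lower for IR over Control, at 0.595 in CD4 cells (0.462 to 0.769) and 0.577 in Foxp3+ cells (0.356 to 0.968). Icos and Tnfrsf9 then passed 1.5-fold for IR+HSO over IR in CD4 cells (1.77 and 2.16), and the Icos ratio for IR over Control also fell short, at 1.43, when ratios were centred on the median gene. Cd28 was highest in Control here, at 327, 254 and 296 CPM.

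CD8 cells had the lowest Tnfrsf4 level of the T cell groups. It was 4.37, 27.4 and 41.8 CPM in them, with a ratio of 6.27 for IR over Control (4.24 to 9.46) and of 1.53 for IR+HSO over IR (1.16 to 2.02). Tnfrsf9 stood at 12.3, 30.4 and 25.7 CPM, and the irradiated libraries were not distinguishable at this depth (ratio 0.846, 0.623 to 1.15). Tnfrsf18 stood at 35.6, 124.5 and 137 CPM. Its 3.50-fold ratio for IR over Control (3.01 to 4.07) was not followed by a difference between the irradiated libraries beyond counting error (1.10, 0.960 to 1.26). Cd27 stood at 270.4, 207 and 156 CPM and Cd28 at 169.8, 153 and 129.5 CPM, both lowest in IR+HSO. The CD8 cells were also the group whose share of T cells was smallest against Control, 653 and 613 cells in IR and IR+HSO against 1280.

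**Figure D2:**
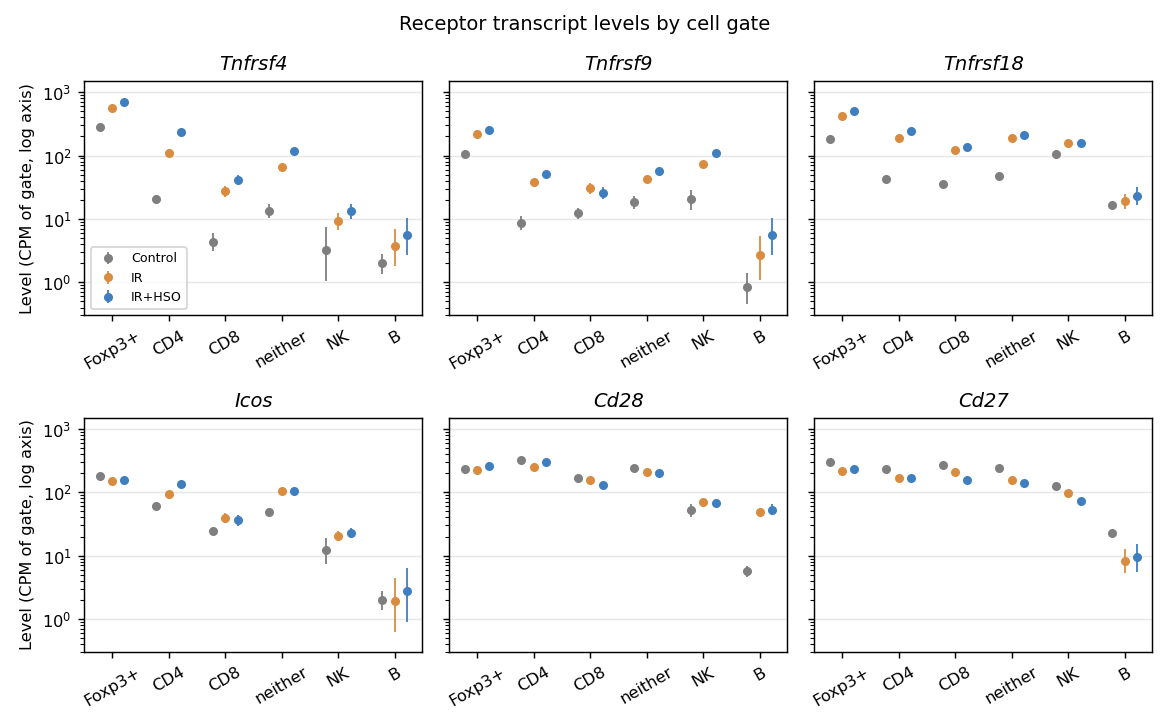
Level of each receptor in Foxp3+, CD4, CD8, neither-coreceptor, NK and B cells, in CPM on a log axis with 95% counting intervals, coloured by library. As gated, without thinning, Foxp3+ cells are the highest group for Tnfrsf4, Tnfrsf9, Tnfrsf18 and Icos in all 3 libraries, and CD4 cells for Cd28.

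As gated, the order of the cell groups was steadier than the levels. Tnfrsf4 ran Foxp3+, CD4, neither, CD8 and NK cells in each of the 3 libraries, and in Control alone CD4 and neither cells, and CD8 and NK cells, overlapped in their intervals. In Control it was 13.9-fold higher in Foxp3+ than in CD4 cells, in IR 5.06-fold and in IR+HSO 2.97-fold. In cells thinned and gated again the gap was 1.63-fold in Control (0.474 to 4.56, from 5 and 18 UMIs), 3.32-fold in IR (2.60 to 4.26) and 3.06-fold in IR+HSO (2.55 to 3.69), so the order of the libraries was not kept. Without thinning the gap for Tnfrsf9 was 12.4-fold, 5.79-fold and 5.02-fold, for Tnfrsf18 4.2-fold, 2.20-fold and 2.11-fold, and for Icos 3.0-fold, 1.62-fold and 1.15-fold. After thinning and gating again it was 2.94-fold (0.476 to 13.8), 5.02-fold and 2.76-fold for Tnfrsf9, so this order of libraries was not kept either. For Tnfrsf18 it was then 3.11-fold, 2.24-fold and 1.82-fold. For Icos it was 2.73-fold, 1.69-fold and 0.906-fold (0.670 to 1.22), so Foxp3+ cells were not above CD4 cells in IR+HSO. Without thinning Cd28 had the opposite order, 0.723, 0.881 and 0.875 of the CD4 level in Foxp3+ cells. Cd27 had the flattest profile, between 229.8 and 302 CPM over the 4 T cell groups of Control with overlapping neighbours throughout.

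NK cells, gated by Ncr1 without Cd3, served as the background for a T cell transcript, with 337, 1531 and 1046 cells. Tnfrsf4 there stood at 3.20, 9.18 and 13.2 CPM, so the T cell level was 10.6-fold, 14.9-fold and 21.7-fold above it. Icos was 4.33-fold, 4.77-fold and 5.2-fold above its NK level and Cd28 4.67-fold, 3.15-fold and 3.41-fold. Tnfrsf9 and Tnfrsf18 had no such margin. NK cells held 20.5, 74.2 and 110.8 CPM of Tnfrsf9, as much as all T cells, and themselves had ratios of 3.63 for IR over Control (2.53 to 5.38) and 1.49 for IR+HSO over IR (1.30 to 1.71). NK Tnfrsf18 stood at 104, 157.5 and 159 CPM, above the T cell level in Control and below it in both irradiated libraries. B cells, gated by Cd79a, Cd79b and Ms4a1, held at most 5.53 CPM of Tnfrsf4, Tnfrsf9 or Icos in any library.

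**Figure D3:**
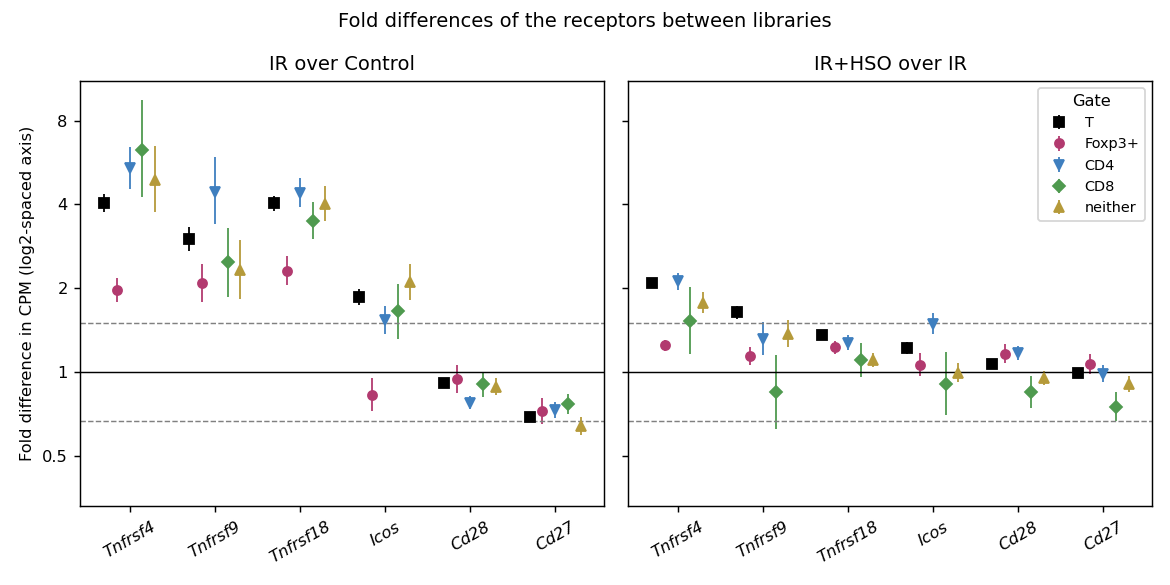
Fold of each receptor in T, Foxp3+, CD4, CD8 and neither-coreceptor cells, IR over Control and IR+HSO over IR, on a log axis with 95% counting intervals and a solid line at 1 and dashed lines at 1.5-fold in either direction. Icos lies below 1 in Foxp3+ cells (0.827) and above 1.5 in the other groups for IR over Control, and Tnfrsf4 is the highest member for IR+HSO over IR in all T cells (2.09).

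Shares of cells with a UMI followed the levels once depth was set equal. Each cell was thinned to 1000 UMIs at random, and shallower cells were left out, 15, 229 and 91 T cells and 7, 157 and 55 NK cells in Control, IR and IR+HSO. A Tnfrsf4 UMI then remained in 2.29% of the T cells of Control, 9.85% of those of IR and 18.7% of those of IR+HSO, and without thinning in 8.12%, 22.2% and 36.9%. In thinned NK cells, whose median depths before thinning were 4106, 2899 and 3688.5 UMIs, the share was 0.303%, 1.16% and 1.41%. Tnfrsf4 was thus seen in more T cells of IR and IR+HSO, far above its NK share. For Tnfrsf9 the thinned T cell shares were 1.40%, 4.41% and 7.42% (5.01%, 12.7% and 19.0% unthinned), and for Tnfrsf18 5.36%, 18.7% and 23.3% (22.2%, 48.9% and 55.0%). In B cells of Control a Tnfrsf9 UMI was seen in 0.345% before thinning and in 0 of 3757 cells after it, which by a floor of 3 counts allows a share of up to 0.0799% at 1000 UMIs per cell. Thinned NK cells had Tnfrsf9 in 1.21%, 6.11% and 10.1% and Tnfrsf18 in 10.3%, 15.6% and 14.7%, so NK cells held both transcripts too. The Icos shares were 4.39%, 8.37% and 11.3% (18.3%, 22.7% and 28.6%), against 1.21%, 2.40% and 2.02% of NK cells. Those of Cd28 were 21.7%, 18.8% and 21.2% (63.6%, 48.3% and 51.3%), and those of Cd27 23.1%, 16.7% and 16.4% (71.3%, 45.6% and 45.5%). NK cells held Cd28 in 6.36%, 6.55% and 6.56% and Cd27 in 13.6%, 8.66% and 7.67%.

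Among thinned Foxp3+ cells, Tnfrsf4 was seen in 19.2%, 36.3% and 41.3%, Tnfrsf18 in 17.1%, 33.9% and 36.9%, and Tnfrsf9 in 8.57%, 14.6% and 18.5%. Icos stayed at 15.5%, 14.0% and 14.6%. The first 3 receptors were thus seen in a larger share of Foxp3+ cells in both irradiated libraries, and Icos was not.

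More T cells had at least 2 receptors in the irradiated libraries, where Tnfrsf4, Tnfrsf9, Tnfrsf18 and Icos were each seen in more T cells too. At least 2 of the 6 were seen in 10.1% of thinned T cells in Control (9.17 to 11.1), 18.3% in IR (17.5 to 19.2) and 26.4% in IR+HSO (25.4 to 27.5). For Foxp3+ cells these shares were 31.4%, 43.9% and 48.6%, for CD4 cells 11.1%, 17.6% and 26.6%, and for CD8 cells 5.87%, 9.78% and 8.43%. NK cells stood at 3.33%, 6.33% and 4.64%. The CD8 share was thus not higher in IR+HSO than in IR, unlike those of Foxp3+ and CD4 cells. Tnfrsf4 and Tnfrsf18 were found in the same T cell 21, 283 and 512 times, where the product of their single shares gives 4.55, 147 and 300.1 cells. Relative to the product, the excess was largest in Control. Within Foxp3+ cells the same pair was found in 16, 140 and 302 cells against 8.06, 105 and 236, so the count lay closer to the product there. Cd28 and Cd27 were found together in 190 T cells of Control against a product of 187.

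**Figure D4:**
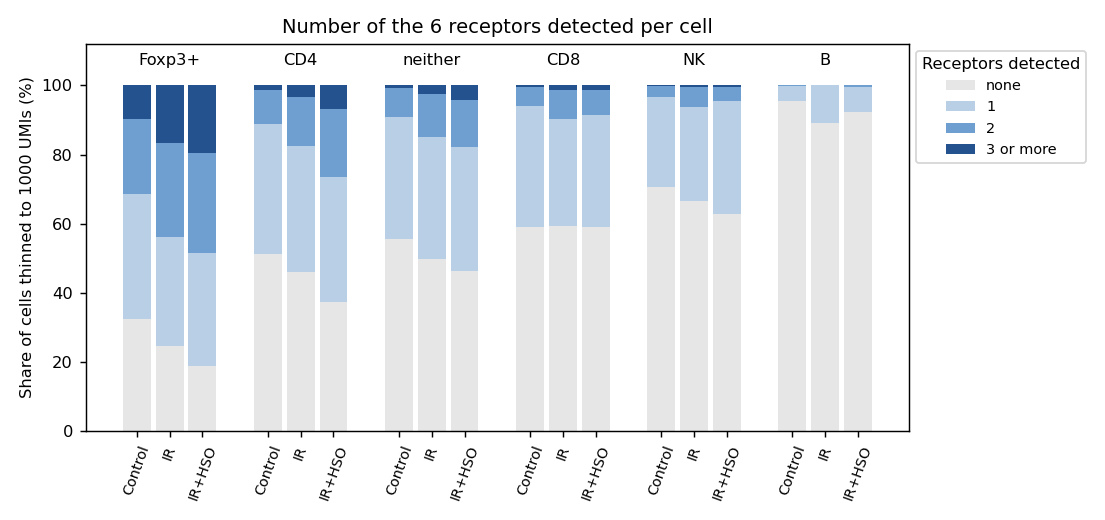
Share of cells in which none, 1, 2 or at least 3 of the 6 receptors had a UMI after thinning to 1000 UMIs, as stacked bars summing to 100% by cell group and library. The 2 darkest parts together, at least 2 receptors, reach 31.4%, 43.9% and 48.6% of Foxp3+ cells in Control, IR and IR+HSO, and 5.87%, 9.78% and 8.43% of CD8 cells.

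The part of the receptor RNA that came from Foxp3+ cells differed between genes and libraries. These cells held 64.8% of the Tnfrsf4 UMIs of T cells in Control, 50.1% in IR and 61.0% in IR+HSO. For Tnfrsf9 the share was 39.9%, 44.0% and 62.7%, for Tnfrsf18 26.8%, 24.4% and 44.9%, and for Icos 26.4%, 18.7% and 33.4%. Cd28 and Cd27 came mostly from other T cells, with Foxp3+ shares of 7.52%, 12.4% and 27.8% and of 9.17%, 15.4% and 33.9%. All 6 Foxp3+ shares were therefore highest in IR+HSO except that of Tnfrsf4. When the levels of the T cell groups were weighted by their Control shares of T cell UMIs, the IR over Control ratios were 3.05 for Tnfrsf4, 2.45 for Tnfrsf9, 3.48 for Tnfrsf18 and 1.46 for Icos. The IR+HSO over IR ratios were then 1.65 for Tnfrsf4 and 1.16 for Tnfrsf9, against 2.09 and 1.64 as measured. At a fixed mix of T cell groups Icos thus no longer passed 1.5-fold for IR over Control, nor Tnfrsf9 for IR+HSO over IR.

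**Figure D5:**
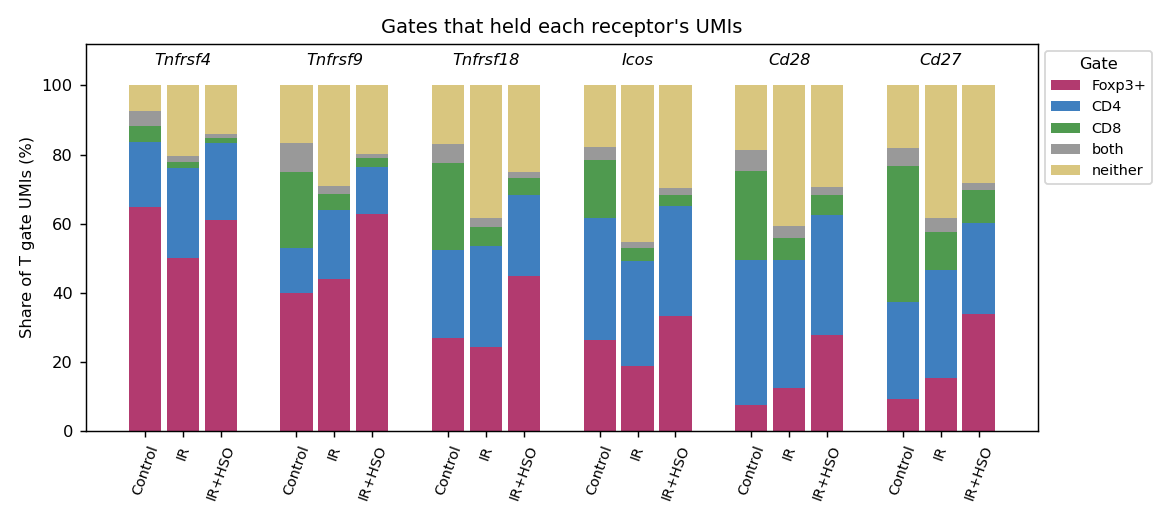
Share of each receptor's T cell UMIs that came from Foxp3+, CD4, CD8, both-coreceptor and neither-coreceptor cells, as stacked bars summing to 100% by library. Foxp3+ cells held 62.7% of Tnfrsf9 UMIs in IR+HSO against 39.9% in Control, and 7.52% of Cd28 UMIs in Control.

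Outside Foxp3+ cells the Tnfrsf4 level was lower when cells with other markers of regulatory and activated T cells were left out. In Foxp3-negative T cells it stood at 12.9, 77.9 and 149 CPM, a ratio of 6.03 for IR over Control and 1.92 for IR+HSO over IR. Without the cells that had a UMI of Il2ra, Ikzf2 or Ctla4 it stood at 4.84, 37.2 and 42.9 CPM. There the ratio for IR over Control was 7.69 (6.05 to 9.92), and that for IR+HSO over IR only 1.15 (1.01 to 1.31), no longer past 1.5-fold. The part of the left-out cells in these ratios was not tested. Foxp3-negative cells with Il2ra, which encodes the high-affinity subunit of the interleukin-2 receptor, numbered 103, 1241 and 1092. In them Tnfrsf4 stood at 72.9, 136 and 232 CPM.

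Further splits, added after earlier results were seen, showed where single receptors departed from the rest. CD4 cells with Pdcd1, the gene of the inhibitory receptor PD-1, numbered 43, 136 and 321. Tnfrsf9 in them stood at 33.5, 146 and 70.2 CPM (13, 102 and 100 UMIs), so it was lower in IR+HSO than in IR (0.482, 0.362 to 0.642). In CD4 cells without Pdcd1 it stood at 7.17, 31.3 and 46.1 CPM, and was higher in IR+HSO (1.47, 1.26 to 1.72). The ratios of these groups thus lay on opposite sides of 1, and the difference between them was not tested. Tnfrsf4 in the Pdcd1 cells stood at 77.3, 373 and 413 CPM.

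Cells with Mki67 or Top2a, the genes of proliferating cells, numbered 338, 1121 and 731, and 14.2%, 11.7% and 27.6% of them were Foxp3+. Tnfrsf4 stood at 74.8, 125 and 335 CPM in them, a ratio of 1.67 for IR over Control and of 2.68 for IR+HSO over IR (2.47 to 2.91). Here the larger step was between the irradiated libraries, and likewise for Tnfrsf9, at 42.7, 62.6 and 128 CPM. For Tnfrsf18, at 70.4, 195 and 307 CPM, the larger step was between Control and IR. The Foxp3+ share of these cells was likewise higher in IR+HSO than in IR, but it was lower in IR than in Control. Its part in the ratios was not tested.

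The ligands of these receptors were mostly rare in T cells. Of 7 ligand genes, 4 had at least 5 CPM in either library for IR over Control, of which 2 were higher (Tnfsf4 and Cd80) and 1 lower (Cd86). Of all genes in T cells, 11.5% were higher and 4.23% lower. Tnfsf4, which encodes the OX40 ligand, had 5, 955 and 774 UMIs in T cells, or 0.218, 26.7 and 25.8 CPM, a ratio of 122 for IR over Control (52.3 to 378). NK cells held 0.639, 22.3 and 33.2 CPM, with 1 UMI behind the Control value. Cd80 stood at 1.05, 10.6 and 11.7 CPM in T cells. Icosl, the ICOS ligand, was a B cell transcript in Control: it stood at 66.3, 14.3 and 13.4 CPM over all cells, and B cells held 69.4% of its UMIs in Control. B cells numbered 3773, 240 and 170. Cd86 stood at 27.6, 6.63 and 9.51 CPM over all cells, so over all cells this CD28 ligand too was lower in both irradiated libraries. B cells held 54.7% of its UMIs in Control. In T cells it stood at 12.4, 7.31 and 11.9 CPM, so there IR+HSO lay near Control. For IR+HSO over IR 1 of 4 ligand genes tested in T cells was higher, Cd86, and 0 lower, where 7.67% and 5.4% of all genes were. Tnfsf18, the GITR ligand, had 3, 5 and 8 UMIs in each whole library, and Cd70 had 3, 29 and 33, too few for a level.

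Adaptors pass the signal of these receptors on. In T cells, of 19 TRAF, NF-kB and phosphoinositide 3-kinase pathway genes, 0 were 1.5-fold higher and 1 lower in IR than in Control, with a median log2 ratio of 0.07. Of all genes, 11.5% were higher and 4.23% lower, and the count of lower genes was near that share. The lower gene was Traf5, an adaptor of OX40, CD27 and GITR, at 59.7, 39.6 and 48.1 CPM (0.663, 0.615 to 0.714). For IR+HSO over IR 1 of 19 was higher, near the 7.67% of all genes, namely Birc3, which encodes an inhibitor of apoptosis, at 46.6 and 71.5 CPM (1.53, 1.44 to 1.63). Traf1, which binds CD137, stood at 131, 162 and 203 CPM without passing 1.5-fold between neighbouring libraries.

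Among genes that costimulation is known to induce, 10 of 16 were higher and 0 lower in T cells of IR than of Control, beside 11.5% and 4.23% of all genes, with a median log2 ratio of 0.63. In Foxp3+ cells 5 of 16 were higher and 1 lower, beside 11.5% and 11.5% of all genes. The survival gene Bcl2 stood at 236 and 1162 CPM (4.92, 4.78 to 5.06) and its relative Bcl2l1 at 9.48 and 30.7 CPM (3.24, 2.80 to 3.76). Il2rb, a signalling subunit of the interleukin-2 receptor, stood at 129.5 and 497 CPM (3.84, 3.69 to 3.99), and Nfkbia, an inhibitor and target of NF-kB, at 221 and 431 CPM (1.95, 1.89 to 2.01). Between IR+HSO and IR the list was even in T cells, with 2 higher, 2 lower and a median of -0.0035. Of all genes, 7.67% were higher and 5.4% lower there. The transcription factor genes Batf (1.66, 1.57 to 1.76) and Maf (1.56, 1.5 to 1.61) were higher in IR+HSO, and the activation marker Cd69 (0.601, 0.587 to 0.616) and the mitotic survivin gene Birc5 (0.384, 0.346 to 0.425) were lower.

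Of 10 other costimulatory receptor genes tested in T cells, 5 were higher and 0 lower in IR than in Control, where 11.5% and 4.23% of all genes were, with a median log2 ratio of 0.46. They included Tnfrsf1b (1.97, 1.77 to 2.20) and Tnfrsf25 (1.86, 1.66 to 2.09) of the tumour necrosis factor receptor family, the tetraspanin gene Cd81 (2.69, 2.46 to 2.94), and Slamf1 (1.94, 1.76 to 2.15). For IR+HSO over IR 3 of 11 were higher and 1 lower, where 7.67% and 5.4% of all genes were, the higher ones including Tnfrsf1b at 37.0 and 69.6 CPM (1.88, 1.76 to 2.02) and Slamf1 (1.52, 1.43 to 1.63). Cd40lg, the helper cell ligand for CD40, was lower at 29.6 and 15.2 CPM (0.514, 0.460 to 0.574).

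Of 8 inhibitory receptor genes tested in T cells for IR over Control, 4 were higher and 0 lower, among them Cd160 (2.92, 2.70 to 3.16), Cd244a (2.66, 2.29 to 3.11) and Ctla4 (1.96, 1.82 to 2.12), with a median log2 ratio of 0.53. Of all genes in T cells, 11.5% were higher and 4.23% lower. In Foxp3+ cells 1 of 10 was higher and 3 lower, with a median of -0.06, beside 11.5% and 11.5% of all genes. The count of higher genes there was near that share. For IR+HSO over IR 7.67% of all genes were higher and 5.4% lower in T cells, and 9.67% and 6.26% in Foxp3+ cells. Among the inhibitory receptor genes 5 of 9 were higher and 0 lower in T cells, with a median of 0.76. In Foxp3+ cells 5 of 9 were higher and 0 lower, with a median of 0.62. In T cells the higher genes were led by Pdcd1 at 13.9 and 39.9 CPM (2.88, 2.59 to 3.21), Ctla4 at 77.8 and 197.5 CPM (2.54, 2.43 to 2.66), Lag3 (2.37, 2.07 to 2.72) and Btla (1.70, 1.60 to 1.81). Ctla4, the inhibitory counterpart of Cd28 that competes for the same ligands, lies between Cd28 and Icos and was higher in both comparisons while Cd28 was not.

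Of 14 regulatory T cell genes tested in all T cells, whose Foxp3+ share was 6.59%, 10.6% and 22.2%, 12 were higher in IR than in Control and 0 lower, with a median log2 ratio of 0.98, led by Il2ra at 21.4 and 86.0 CPM (4.01, 3.65 to 4.42), Gpr83 (3.62, 3.04 to 4.34), Ikzf4 (3.11, 2.71 to 3.57) and Capg (2.30, 2.15 to 2.45). Of all genes in T cells, 11.5% were higher and 4.23% lower in IR than in Control. For IR+HSO over IR 11 of 16 were higher and 0 lower, with a median of 0.80, beside 7.67% and 5.4% of all genes. Within Foxp3+ cells the counts were smaller, 3 higher and 1 lower of 16 for IR over Control and 2 higher and 0 lower of 16 for IR+HSO over IR, beside 11.5%, 11.5%, 9.67% and 6.26% of all genes. In all T cells Foxp3 itself, which the cell groups were gated on, stood at 46.8 and 114 CPM, Nrp1 at 43.6 and 93.8 CPM (2.15, 2.02 to 2.29), Lrrc32 at 12.6 and 27.3 CPM (2.16, 1.92 to 2.43) and Nt5e at 73.6 and 141 CPM (1.91, 1.82 to 2.01). Of 11 naive T cell genes, 1 was higher in IR over Control, Igfbp4 (3.20, 3.08 to 3.33), and 1 was lower, Dapl1 at 285 and 39.4 CPM (0.138, 0.130 to 0.146), with a median of -0.35, counts near the 11.5% and 4.23% of all genes. For IR+HSO over IR 0 were higher and 3 were lower, Dapl1 (0.346, 0.309 to 0.387), Igfbp4 (0.605, 0.588 to 0.622) and Klf2 at 931 and 593 CPM (0.637, 0.625 to 0.649). Of all genes in T cells, 7.67% were higher and 5.4% lower.

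The genes most like each receptor were found by Pearson's r of log2(CPM + 1) over 15 points, the Foxp3+, CD4, CD8, neither and NK cells of 3 libraries, among 11305 genes. These points share libraries and depth, so r is a description. Tnfrsf4 was nearest to Lrrc32 (r = 0.978), the regulatory T cell gene for the surface anchor of latent TGF-beta, and then to Tiam1 and Ptpn13. Tnfrsf9 was nearest to Smim36 (0.962), Traf1 (0.949) and Srgn, and Tnfrsf18 to Samsn1 (0.952), Upf3b and Crem. Icos was nearest to Art2a (0.964), C9orf72 and Bcl2a1b. Cd28 was nearest to Znrf1 (0.982), B630019A10Rik and Fyb, and Cd27 to Rhoh (0.964), Cpm and Smc4. No gene appeared among the 3 nearest of more than 1 receptor.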

How the data were processed

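The values the authors deposited are raw UMI counts of called cells, from Cell Ranger 7.0.1 according to the file headers. The genome build was GRCm39 per the submitters' processing notes, and alignment settings are not given in the sources used here. The members, gene lists and cell groups were chosen with earlier results of these data known. Cells were kept with at least 500 UMIs and under 10% mitochondrial UMIs, which left 9163, 12866 and 10608. Doublets were kept, and removing likely ones was an alternative.

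UMIs were summed per library and cell group and divided by the group's total (CPM). A fold is the ratio of CPM with an exact conditional 95% interval, levels carry Poisson and shares Clopper-Pearson intervals. All cover counting error only. A gene was called at 1.5-fold, among genes with at least 5 CPM in either library. The procedure was checked on simulated data. Named were all members, at most 4 genes per list and comparison past 1.5-fold by size of the log2 ratio with at least 20 CPM, and the 3 genes most like each member; Traf1, Cd80 and Cd86, the rare ligands and further cell groups were added after values were seen. Python 3.11.15, numpy 2.4.6, scipy 1.17.1, scanpy 1.11.5 (doublet scores) and matplotlib 3.10.9 were used. Alternatives covered the T cell definition, doublets, cell filter, depth, scaling, weighting, background and thresholds. Tcrg-C1 and Tcrg-C2 were not used here. A split of the cell groups by another gene is not reported here.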

Additional observations from a re-analysis of the deposited data

Results flagged for a closer look

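The Icos ratio of IR to Control lay below 1 in Foxp3+ cells, at 0.827 (0.722 to 0.948), and above 1 in CD4 cells at 1.54, CD8 cells at 1.65 and neither-coreceptor cells at 2.10, so as gated the ratios lay on opposite sides of 1. The same held for IR+HSO over Control, with 0.876 (0.774 to 0.995) in Foxp3+ cells against 2.29, 1.5 and 2.09 in the others, and these ratios share the Control library. The Cd28 ratio of IR+HSO to IR was 0.844 (0.739 to 0.964) in CD8 cells against 1.16 in Foxp3+ and 1.17 in CD4 cells. With 1 library per group the difference between cell groups was not tested in any of the 3 cases.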

How the results depend on the processing

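No paired analysis was possible because each group has 1 library. Over the alternatives 782 member ratios were recomputed, 764 of them kept their direction and 39 moved across 1.5-fold, and of the ratios past 1.5-fold 0 reversed. In T cells the number of members past 1.5-fold for IR+HSO over IR was 1 in place of 2 with cell groups weighted as in Control (Tnfrsf4 alone), and 1 at a 2-fold threshold. With the NK level subtracted it was 2 in place of 4 for IR+HSO over Control. Tnfrsf9 and Tnfrsf18 then have no ratio, since the NK level is as high as the T cell level in at least 1 library, and their calls are lost for IR over Control too (leaving Tnfrsf4 and Icos higher, and Cd27 lower at 0.612); for IR+HSO over IR Tnfrsf9 is lost and Tnfrsf18 gained at 2.40. Icos for IR over Control was 1.46 with the weighting as in Control. In CD4 cells 9 of 82 calls changed for IR over Control and 8 of 83 for IR+HSO over IR, most of them of Icos; thinning took Tnfrsf4 from 5.39 to 2.72 and Tnfrsf9 from 4.44 to 2.22 for IR over Control. In Foxp3+ cells it was 1 in place of 0 for IR+HSO over IR after thinning to 1000 UMIs and gating again (Tnfrsf4, 1.55); that gate held 49, 262 and 402 cells and 5, 148 and 353 Tnfrsf4 UMIs, and its IR over Control ratio was 5.54. Over the alternatives the T cell ratio of Tnfrsf4 ran from 3.05 to 5.58 for IR over Control and from 1.65 to 2.25 for IR+HSO over IR, and that of Cd27 for IR over Control from 0.600 to 0.735, past 1.5-fold lower under some. The Cd27 ratio for IR over Control ran from 0.577 to 0.768 in Foxp3+ cells and from 0.595 to 0.754 in CD4 cells. In Foxp3+ cells Cd27 passed 1.5-fold lower after thinning, without likely doublets, and without T cells of 2 or more B cell UMIs. The background share of genes higher in IR than Control in T cells was 8.98% with at least 20 CPM and 20.7% with any UMI in both libraries. Depth limits the Control Foxp3+ cells, of which there were 246, and the NK level of Tnfrsf4 in Control, which rests on 5 UMIs. Leaving out the mitochondrial filter, subtracting the B cell level and the gap between Foxp3+ and CD4 cells after thinning were chosen after seeing the data.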

Other observations

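The group gated as B cells also differed in a receptor between libraries, but its own markers differed too. Cd28 in the B cell group stood at 5.67 CPM in Control, 48.2 in IR and 53.1 in IR+HSO, a ratio of 8.5 for IR over Control (6.46 to 11.2). The 6 B cell markers summed to 7215, 1261 and 925 CPM in that group, whose numbers were 3773, 240 and 170 cells. The 4 plasma cell markers summed to 1778, 39596 and 32305 CPM in it. The Cd28 ratio therefore compares groups of unlike content, and the part of plasma cells in it was not tested. Plasma cells are known to carry CD28. Cd27 in the same cells stood at 22.6, 8.35 and 9.41 CPM.

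Cd27 was also read in innate-like and gamma-delta T cells. In T cells with Trdc, the constant gene of the T cell receptor delta chain, Cd27 stood at 354.5, 182 and 151 CPM, a ratio of 0.513 (0.452 to 0.583) for IR over Control. In T cells with Zbtb16 or Cxcr6, genes of innate-like and tissue-resident T cells, it stood at 243, 137 and 114 CPM (0.564, 0.513 to 0.620). The latter cells had 73.6, 190.0 and 184 CPM of Icos, a ratio of 2.58 for IR over Control (2.25 to 2.97). Both splits were added after earlier results were seen. In CD8 cells with Ccl5, a gene of effector and memory cells, Tnfrsf4 stood at 1.87, 21.3 and 35.4 CPM, and in those without at 5.89, 48.4 and 64.8 CPM.

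The T cell barcodes left out for their mitochondrial share, 38, 133 and 279 in number, held 62.0, 74.2 and 203 CPM of Tnfrsf4, with 3 UMIs behind the Control value.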
